A study of Homo sapiens with 16 samples.

Results

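The 44 protein-coding collagen chain genes of the deposited table, of 58735 genes in all, were followed across 2 breast cancer cell lines with or without an inhibitor of YES1. Members were every protein-coding gene whose symbol is COL, a number, A and a number. This rule uses no measured value, but the family was chosen with earlier results of these data known. Of the 44 chains, 30 were among the 17647 genes that passed the filter on low counts and were tested. That filter kept genes at about 0.502 CPM (the count scaled to the size of its library) or more in at least as many libraries as a group holds, and 19 chains were past this level in all 16 libraries. Both cell lines, MDA-MB-231 and SUM159 (titled SUM159PT), are established models of human triple-negative breast cancer, recorded as wild type. Each line received the solvent DMSO or 8 uM of YES1i (CH6953755), which blocks YES1, a tyrosine kinase related to Src, and was collected 48 h later, with 4 libraries of poly(A) RNA per group. All 4 groups shared plating the day before, and MDA-MB-231 grew in RPMI while SUM159 grew in Ham's F12, so that line and medium cannot be told apart. The series text calls the 4 libraries of a group technical replicates, and the p-values measure only the spread between these libraries.

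Collagens are the main structural proteins of the extracellular matrix. Their alpha chains wind into a triple helix in the endoplasmic reticulum, after hydroxylation of prolines and lysines, and the trimers leave the cell to form fibrils, networks or beaded filaments. Type I and type III are the classic fibrillar collagens of connective tissue and of tumour stroma, and type V regulates fibril diameter. Type IV forms the sheet of basement membranes, which epithelial tumour cells cross when they invade. Most collagen in a breast tumour is made by fibroblasts, but carcinoma cells of mesenchymal character also transcribe collagen genes.

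Upstream sequences are shown for 4 chains that later results turn on. COL6A2 was called higher in both lines and COL4A5 in MDA-MB-231 only, while COL5A1 and COL12A1 were called in opposite directions in the lines. The sequences are reference sequences of RefSeq (GRCh38.p14), 5′ to 3′ on the strand of the gene. They come from the 250 bases before the annotated start site, with any exon base left out. A promoter entry existed for 32 of the 44 chains. COL6A1 had no entry, and COL6A3 had only 39 bases free of exons, so neither is shown. Capitals mark the letters searched on both strands, which were GGGCGG for the GC box and CCAAT for the box of that name. The TATA box was searched as TATAAA, the AP-1 motif as TGANTCA and the TEAD motif as GGAATG. None of the matches overlapped another.
COL6A2, chr21:46097862-46098096, plus strand: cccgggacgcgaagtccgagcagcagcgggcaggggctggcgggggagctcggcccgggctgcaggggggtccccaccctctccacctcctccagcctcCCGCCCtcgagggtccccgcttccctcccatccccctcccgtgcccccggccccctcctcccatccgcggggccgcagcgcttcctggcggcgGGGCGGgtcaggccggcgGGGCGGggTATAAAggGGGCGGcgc
COL4A5, chrX:108439588-108439837, plus strand: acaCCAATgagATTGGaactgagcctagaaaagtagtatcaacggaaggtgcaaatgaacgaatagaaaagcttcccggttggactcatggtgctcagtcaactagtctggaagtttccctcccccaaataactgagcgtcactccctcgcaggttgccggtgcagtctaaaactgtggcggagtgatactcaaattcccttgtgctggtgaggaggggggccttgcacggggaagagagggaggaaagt
COL5A1, chr9:134641553-134641773, plus strand: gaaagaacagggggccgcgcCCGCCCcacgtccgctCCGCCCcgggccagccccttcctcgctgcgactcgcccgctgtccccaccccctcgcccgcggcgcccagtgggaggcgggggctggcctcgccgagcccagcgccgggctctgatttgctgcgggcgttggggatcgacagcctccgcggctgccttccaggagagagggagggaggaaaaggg
COL12A1, chr6:75206054-75206303, minus strand: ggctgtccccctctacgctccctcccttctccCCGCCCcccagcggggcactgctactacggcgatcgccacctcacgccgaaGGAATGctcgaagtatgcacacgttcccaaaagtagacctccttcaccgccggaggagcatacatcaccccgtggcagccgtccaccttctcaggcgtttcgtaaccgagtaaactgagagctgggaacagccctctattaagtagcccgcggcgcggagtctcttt
The COL6A2 stretch of 235 bases was 79.6% G or C and held 4 GC boxes and 1 TATA box, letters that 40.7% and 10.5% of all 35116 promoter windows of that length hold. In the 221 bases before COL5A1 there were 2 GC boxes, and in the 250 bases before COL12A1 there were 1 GC box and 1 match to the TEAD letters. At this length 42.6% of all promoter windows hold a GC box and 11.9% the TEAD letters. The COL4A5 stretch was 51.2% G or C, against a median of 58.0% over all windows of 250 bases, and held 2 CCAAT matches, as 32.0% of windows hold at least 1. It lies between COL4A5 and COL4A6, which are transcribed away from each other from RefSeq start sites with 379 bases between them. COL4A1 and COL4A2 share such a stretch of 126 bases. These are matches of letters only, and binding was not measured.

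Total counts ran from 15876171 to 36261542 per library, and a count of 0 allows a level of up to 0.0859 to 0.194 CPM (3 counts, counting error only). Levels are CPM scaled with the trimmed mean of M values (TMM), and levels of different chains are compared only per kilobase (kb) of the deposited gene length. In SUM159, YES1i replicate 2 stood apart from its group, where the chi-square of its counts, divided by the degrees of freedom, was 12.6 to 24.4 against the other replicates and theirs was 4.04 to 6.75 among themselves. It was the lowest library of the group for 16 of the 21 chains at 5 CPM or more there. SUM159 DMSO replicate 1, the deepest library, was at 16.9 and 17.7 against replicates 2 and 3 and at 7.56 against replicate 4, where the other replicates were 3.63 to 7.55 among themselves. This chi-square uses raw counts and can grow with depth. On the log scale the correlations of that library with replicates 2, 3 and 4 were 0.9901, 0.9913 and 0.9916. Among the other replicates they were 0.9890 to 0.9904, so by this measure it did not stand apart. Both lines held the mesenchymal markers VIM, CD44 and ZEB1, summing to 1475 to 1529 CPM with DMSO in MDA-MB-231 and 2396 to 2591 CPM in SUM159. ESR1 and PGR were under 1 CPM in every group, while ERBB2, which lines without its amplification also transcribe, was at 108 ± 2.52 CPM with DMSO in MDA-MB-231 and 118 ± 7.39 CPM in SUM159 (SD, n = 4). In SUM159 the epithelial marker CDH1 was at 0 in all libraries, and 2 of the 4 epithelial markers (EPCAM, CDH1, KRT8 and KRT18) were under 1 CPM. The 4 still summed to 408 to 440 CPM there with DMSO, beside 1151 to 1247 CPM in MDA-MB-231.

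**Figure D1:**
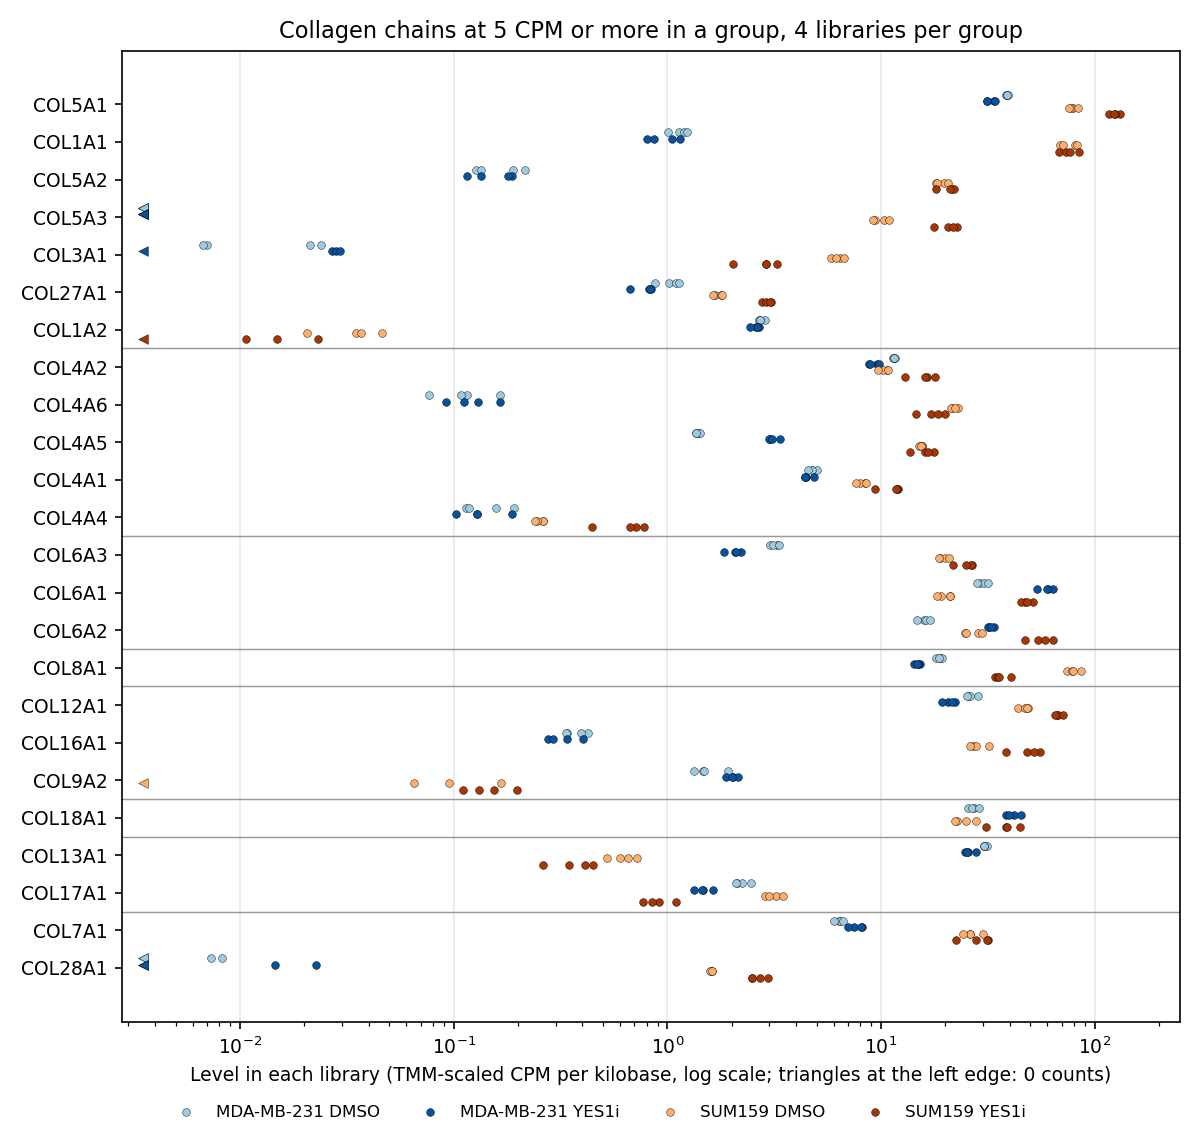
Level of each chain at 5 CPM or more in a group, in TMM-scaled CPM per kb on a log axis, with 1 point per library and 4 libraries per group; triangles at the left edge are libraries with 0 counts, and grey lines part the structural classes. COL5A3 sits at 0 counts in all 8 MDA-MB-231 libraries, and COL1A1 and COL1A2 lie in opposite order in the lines.

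With YES1i, 5 chains were called lower in MDA-MB-231 and higher in SUM159. The share of all tested genes with this pattern, or called the same way in both lines, was not counted. Over the 30 tested chains, the counts of called chains in MDA-MB-231 were near the background of all tested genes. In SUM159 the share of chains that were higher was above it (56.7% beside 25.1%). The 30 include COL5A3 and COL23A1, which had 0 counts in MDA-MB-231. Of the 19 chains past the filter level in all 16 libraries, 26.3% were higher and 42.1% lower in MDA-MB-231 (median log2 fold change -0.17). In SUM159, 57.9% of the 19 were higher and 21.1% lower. The shares over all genes past this level in all 16 libraries were not counted, so the 19 have no matched background. In MDA-MB-231, 6 of the 30 tested chains rose and 8 fell (edgeR adjusted p under 0.05), where 26.8% of all tested genes were higher, 22.1% lower and 48.9% called either way. In SUM159, 17 chains rose and 6 fell, against 25.1% and 26.5% of all tested genes and 51.6% either way. The 4 treated libraries lay above all controls for 6 chains and below for 9 in MDA-MB-231, where 25.5% and 21.8% of all tested genes did so. In SUM159 this held for 17 and 5 chains, against 20.5% and 22.7%. With upper quartile scaling, the higher share of all called genes in SUM159 was 63.4% in place of 48.7%, and in the difference between lines 43.9% in place of 61.2%. The median log2 fold change of the chains was -0.04 in MDA-MB-231, beside 0.03 for all tested genes, and 0.57 in SUM159, beside 0.02. In these bulk samples fewer cells of a type and less RNA per cell cannot be told apart.

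COL5A1, COL12A1, COL6A3, COL4A2 and COL27A1 fell in MDA-MB-231 and rose in SUM159. COL6A1, COL6A2 and COL18A1 rose in both lines, and COL8A1, COL13A1 and COL17A1 fell in both. COL4A5, COL7A1 and COL8A2 rose in MDA-MB-231 and did not pass the test in SUM159, and of these the change of COL4A5 was called different between the lines. In the test of the difference itself, the change in MDA-MB-231 minus that in SUM159, 16 chains were called, 5 higher and 11 lower, where 19.1% of all tested genes were higher, 12.1% lower and 31.1% either. All 5 chains called in opposite directions were among the 11. The median difference of the chains was -0.25, beside 0.04 for all tested genes.

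**Figure D2:**
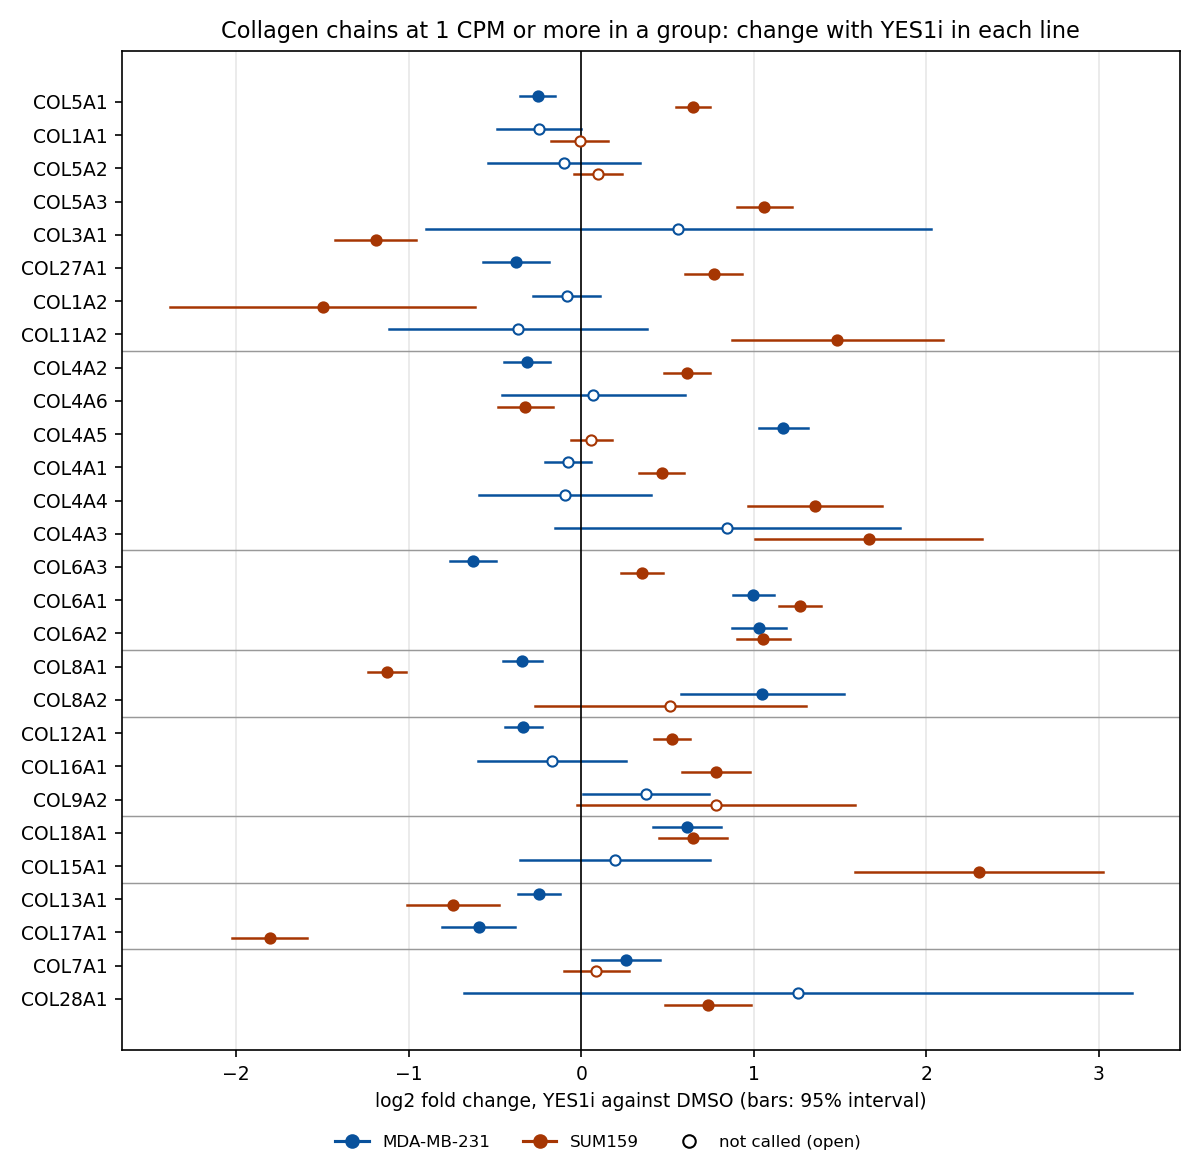
Log2 fold change with YES1i against DMSO for the 28 chains at 1 CPM or more in a group, in MDA-MB-231 (blue) and SUM159 (brown), with 95% intervals from the fit; filled points passed an edgeR adjusted p of 0.05, and grey lines part the structural classes. COL5A1, COL12A1, COL6A3, COL4A2 and COL27A1 have filled points on both sides of 0, and COL5A3, with 0 counts in MDA-MB-231, has no point there.

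Of the fibrillar chains, 8 of 11 were tested. None rose and 2 fell in MDA-MB-231 (median log2 fold change -0.17), while 4 rose and 2 fell in SUM159 (median 0.37). The share that fell was 25% in both lines, near the 22.1% and 26.5% of all tested genes, and the share that rose in SUM159 was 50%, beside 25.1%. In MDA-MB-231, COL5A3 had 0 counts, and COL3A1 had 8 counts with DMSO and 11 with YES1i. A fall of either could hardly be called there. COL5A1 (ENSG00000130635, chromosome 9, 134641774 to 134844843, plus strand on hg38) encodes the main chain of type V collagen and had the most counts of the family. In MDA-MB-231 it had 428, 435, 437 and 436 CPM in DMSO replicates 1 to 4 and 378, 349, 382 and 349.8 CPM with YES1i. All treated libraries lay below all controls, with a log2 fold change of -0.25 ± 0.05 SE (adjusted p = 7.62e-05, edgeR). In SUM159 it had 881, 870.1, 933 and 849.5 CPM with DMSO and 1466, 1303, 1398 and 1374 CPM with YES1i. Here the order was the reverse with no overlap, and the log2 fold change was 0.65 ± 0.05 SE (adjusted p = 3.88e-12, edgeR). The change in MDA-MB-231 minus that in SUM159 was -0.90 ± 0.07 SE (adjusted p = 2.10e-11, edgeR).

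The other type V chains were scarce in MDA-MB-231. COL5A2 (ENSG00000204262, chromosome 2, 189031896 to 189225312, minus strand), the usual partner of COL5A1, had 1.60, 1.42, 0.951 and 1.00 CPM with DMSO and 0.860, 1.40, 1.34 and 1.00 CPM with YES1i in MDA-MB-231. The SUM159 libraries had 146, 135, 154 and 137 CPM with DMSO and 159, 134, 164 and 156 CPM with YES1i. The groups overlapped in both lines and neither change was called. Without SUM159 YES1i replicate 2 the change in SUM159 was called, at 0.16 (edgeR adjusted p = 0.0247), and likewise with upper quartile scaling. COL5A3 (ENSG00000080573, chromosome 19, 9959561 to 10010471, minus strand), a chain of a rarer form of type V, had 0 counts in all 8 libraries of MDA-MB-231. The levels in SUM159 were 63.0, 69.4, 73.8 and 61.7 CPM with DMSO and 153, 119.7, 139 and 146 CPM with YES1i. It rose there on the log2 scale by 1.06 ± 0.08 SE (adjusted p = 2.18e-10, edgeR), and the lowest treated library lay above the highest control. A floor of 3 counts over the group puts COL5A3 with DMSO at least 1817-fold higher in SUM159 than in MDA-MB-231.

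No chain of type I or III passed the test as higher in either line. COL1A1 (ENSG00000108821, chromosome 17, 50183289 to 50201632, minus strand), the major chain of type I collagen, had 9.88, 11.2, 11.8 and 12.1 CPM with DMSO and 11.3, 7.85, 10.3 and 8.45 CPM with YES1i in MDA-MB-231. Its SUM159 values were 673, 798, 813 and 698 CPM with DMSO and 828, 666, 722 and 749 CPM with YES1i. The groups overlapped in both lines, with log2 fold changes of -0.25 ± 0.12 SE (adjusted p = 0.0888, edgeR) and -0.01 ± 0.08 SE (adjusted p = 0.953, edgeR). The 95% interval in SUM159 ran from -0.17 to 0.16. The fall in MDA-MB-231 was called without DMSO replicate 1 (-0.30, edgeR adjusted p = 0.0396) or YES1i replicate 1 (-0.34, adjusted p = 0.0231), and with 3 other alternatives.

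COL1A2 (ENSG00000164692, chromosome 7, 94394561 to 94431232, plus strand), the other chain of type I, had 30.0, 31.9, 30.1 and 30.4 CPM with DMSO and 29, 29.9, 29.2 and 27.3 CPM with YES1i in MDA-MB-231, where the treated libraries lay below the controls and the change of -0.09 was not called. In SUM159 it was near the floor, at 0.515, 0.387, 0.229 and 0.411 CPM with DMSO and 0.119, 0, 0.166 and 0.260 CPM with YES1i. It was called lower there (log2 -1.5 ± 0.43 SE, adjusted p = 0.00464, edgeR) although the groups overlapped. An antisense gene, AC002074.1, overlaps it with 21.3% of its count in SUM159, and the strand rule of the counting is not given in the sources used here. The difference between lines, 1.41 ± 0.44 SE (adjusted p = 0.015, edgeR), was not called without SUM159 DMSO replicate 1 (adjusted p = 0.0906) or without SUM159 YES1i replicate 2 (adjusted p = 0.0912).

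COL3A1 (ENSG00000168542, chromosome 2, 188974320 to 189012746, plus strand) encodes the chain of type III collagen, which assembles with type I in soft tissue. SUM159 libraries held 39.9, 43.9, 41.9 and 45.8 CPM with DMSO and 22.2, 13.8, 19.7 and 19.6 CPM with YES1i. It fell there with no overlap (log2 -1.19 ± 0.11 SE, adjusted p = 1.10e-09, edgeR). In MDA-MB-231 it was at 0.145, 0.163, 0.0475 and 0.0456 CPM with DMSO and 0, 0.183, 0.192 and 0.20 CPM with YES1i, at or near the level that a count of 0 allows. The difference between lines (1.75, edgeR adjusted p = 0.0775) was called only without MDA-MB-231 YES1i replicate 1 (adjusted p = 0.0211) and by DESeq2.

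COL27A1 (ENSG00000196739, chromosome 9, 114155560 to 114312511, plus strand), a fibrillar chain best known from cartilage, moved in opposite directions. In MDA-MB-231 it had 14.2, 15.4, 15.9 and 12.2 CPM with DMSO and 11.5, 9.37, 11.7 and 11.6 CPM with YES1i. For SUM159 the levels were 23.5, 22.8, 25.0 and 25.3 CPM with DMSO and 38.6, 42.7, 40.4 and 42.4 CPM with YES1i. Neither line's groups overlapped, and the log2 fold changes were -0.38 ± 0.09 SE (adjusted p = 0.00107, edgeR) and 0.77 ± 0.08 SE (adjusted p = 4.44e-09, edgeR). Their difference was -1.15 ± 0.12 SE (adjusted p = 1.83e-08, edgeR). COL11A2, a chain of type XI collagen of cartilage, stayed under 3 CPM in every library. It had 0.684 ± 0.344 and 0.534 ± 0.0842 CPM with DMSO and YES1i in MDA-MB-231, beside 0.826 ± 0.115 and 2.28 ± 0.496 CPM in SUM159 (SD, n = 4), where it rose on the log2 scale by 1.48 ± 0.30 SE (adjusted p = 1.24e-04, edgeR).

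Of the 6 type IV chains of basement membranes, all were tested. In MDA-MB-231, 1 rose and 1 fell, and in SUM159, 4 rose and 1 fell. That is 16.7% each way in MDA-MB-231, below the 26.8% and 22.1% of all tested genes, and 66.7% and 16.7% in SUM159, beside 25.1% and 26.5%. COL4A1 and COL4A2 form the type IV trimer found in nearly all basement membranes. COL4A2 (ENSG00000134871, chromosome 13, 110305812 to 110513209, plus strand) had 219, 222, 224 and 221 CPM with DMSO and 185, 169, 188 and 170.4 CPM with YES1i in MDA-MB-231. In SUM159 it had 205, 197, 208 and 186 CPM with DMSO and 344, 251, 315 and 308 CPM with YES1i. It fell in the first line (log2 -0.31 ± 0.07 SE, adjusted p = 2.21e-04, edgeR) and rose in the second (log2 0.61 ± 0.07 SE, adjusted p = 8.17e-09, edgeR), with no overlap in either.

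COL4A1 (ENSG00000187498, chromosome 13, 110148963 to 110307233, minus strand) had 70.2, 74.0, 70.0 and 67.1 CPM with DMSO and 71.3, 65.3, 65.3 and 65.1 CPM with YES1i in MDA-MB-231, where the groups overlapped. The SUM159 libraries had 123, 118, 125 and 112 CPM with DMSO and 177, 137, 175 and 173 CPM with YES1i, with no overlap. Its log2 fold change was -0.08 ± 0.07 SE (adjusted p = 0.363, edgeR) in MDA-MB-231 and 0.47 ± 0.06 SE (adjusted p = 4.03e-07, edgeR) in SUM159. The genes of COL4A1 and COL4A2 overlap on opposite strands in the deposited annotation, so that without the strand rule some reads of one could be counted for the other.

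COL4A5 and COL4A6 are the X-linked type IV chains of specialised basement membranes. COL4A5 (ENSG00000188153, chromosome X, 108439844 to 108697545, plus strand) had 16.6, 16.1, 16.8 and 16.1 CPM with DMSO and 39.8, 35.8, 35.6 and 36.8 CPM with YES1i in MDA-MB-231. The levels in SUM159 were 178, 185, 184 and 183 CPM with DMSO and 209.6, 163, 191 and 197 CPM with YES1i. It rose on the log2 scale by 1.17 ± 0.07 SE (adjusted p = 1.66e-14, edgeR) in MDA-MB-231, from a level well under that of SUM159. In SUM159 the groups overlapped and the change of 0.06 was not called (95% interval -0.06 to 0.18), though upper quartile scaling and leaving out YES1i replicate 2 (0.13, edgeR adjusted p = 0.025) each gave a call. The difference between lines was 1.11 ± 0.09 SE (adjusted p = 7.48e-11, edgeR).

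COL4A6 (ENSG00000197565, chromosome X, 108155607 to 108439497, minus strand) had 199, 197, 212 and 206 CPM with DMSO and 159.6, 135, 184 and 172 CPM with YES1i in SUM159. It fell there with no overlap (log2 -0.32 ± 0.08 SE, adjusted p = 0.001, edgeR). In MDA-MB-231 it was at 1.07, 0.708, 1.52 and 1.00 CPM with DMSO and 1.03, 1.52, 1.2 and 0.850 CPM with YES1i, and the change of 0.07 was not called. COL4A3 and COL4A4, known from the kidney filter, were the lowest type IV chains per kb in SUM159.

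COL4A4 (ENSG00000081052, chromosome 2, 227002711 to 227164453, minus strand) had 1.94, 1.14, 1.19 and 1.60 CPM with DMSO and 1.89, 1.03, 1.30 and 1.30 CPM with YES1i in MDA-MB-231. Its SUM159 values were 2.63, 2.65, 2.48 and 2.41 CPM with DMSO and 7.86, 4.46, 7.18 and 6.71 CPM with YES1i. Its rise in SUM159 was a log2 change of 1.36 ± 0.19 SE (adjusted p = 6.23e-07, edgeR), and the groups in MDA-MB-231 overlapped. COL4A3 went from 0.710 ± 0.285 to 2.31 ± 0.305 CPM (SD, n = 4) in SUM159, a log2 rise of 1.66 ± 0.32 SE (adjusted p = 7.26e-05, edgeR). In MDA-MB-231 it was at 0.229 ± 0.179 and 0.407 ± 0.121 CPM and was called only without DMSO replicate 2 (1.47, edgeR adjusted p = 0.0248). The antisense gene AC097662.1 overlaps COL4A3 with 235% of its count in MDA-MB-231 and 89.3% in SUM159.

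Type VI collagen forms beaded filaments that link cells to the surrounding matrix, from the chains COL6A1, COL6A2 and COL6A3. In MDA-MB-231 the first 2 chains rose and the third fell, and in SUM159 all 3 rose. These are 66.7% and 33.3% in MDA-MB-231, beside 26.8% and 22.1% of all tested genes. In SUM159 the share that rose was 100%, beside 25.1%, over only 3 tested chains. COL6A1 (ENSG00000142156, chromosome 21, 45981737 to 46005050, plus strand) had 155, 162, 151 and 169 CPM with DMSO and 324, 287, 341 and 318 CPM with YES1i in MDA-MB-231. SUM159 libraries held 112, 102, 113 and 97.9 CPM with DMSO and 275, 252, 241 and 256 CPM with YES1i. Every treated library lay above every control of its line, and COL6A1 rose on the log2 scale by 1.00 ± 0.06 SE (adjusted p = 1.35e-14, edgeR) and 1.27 ± 0.06 SE (adjusted p = 1.60e-16, edgeR). The rise was smaller in MDA-MB-231 (difference -0.27 ± 0.08 SE, adjusted p = 0.0123, edgeR).

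COL6A2 (ENSG00000142173, chromosome 21, 46098097 to 46132849, plus strand), whose upstream sequence is shown above and whose gene lies near COL6A1 on chromosome 21, had 85.3, 87.4, 79.0 and 91.0 CPM with DMSO and 173, 169.9, 182 and 176 CPM with YES1i in MDA-MB-231. For SUM159 the levels were 133, 154, 159 and 134 CPM with DMSO and 342, 254, 292 and 316 CPM with YES1i. No groups overlapped, and it rose on the log2 scale by 1.03 ± 0.08 SE (adjusted p = 3.16e-11, edgeR) and 1.06 ± 0.07 SE (adjusted p = 1.80e-11, edgeR). The difference of -0.02 between lines was not called (95% interval -0.24 to 0.19).

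COL6A3 (ENSG00000163359, chromosome 2, 237324003 to 237414375, minus strand), the long chain that assembles with the other two, had 63.7, 59.5, 61.0 and 65.2 CPM with DMSO and 43.4, 36.3, 40.8 and 41.0 CPM with YES1i in MDA-MB-231. In SUM159 it had 369.7, 389, 409 and 365 CPM with DMSO and 523, 425, 516 and 492 CPM with YES1i. It fell in the first line (log2 -0.63 ± 0.07 SE, adjusted p = 3.11e-09, edgeR) and rose in the second (log2 0.35 ± 0.06 SE, adjusted p = 1.12e-05, edgeR), with no overlap in either. The difference was -0.98 ± 0.09 SE (adjusted p = 6.56e-10, edgeR). Per kb, the ratio of COL6A1 to COL6A3 went from 9.38 ± 0.465 to 28.9 ± 1.36 in MDA-MB-231 and from 1.02 ± 0.0661 to 1.94 ± 0.191 in SUM159 (SD, n = 4). The ratio of COL6A1 to COL6A2 was 1.87 ± 0.0347 and 1.83 ± 0.0888 in MDA-MB-231, beside 0.743 ± 0.0778 and 0.866 ± 0.0923 in SUM159.

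**Figure D3:**
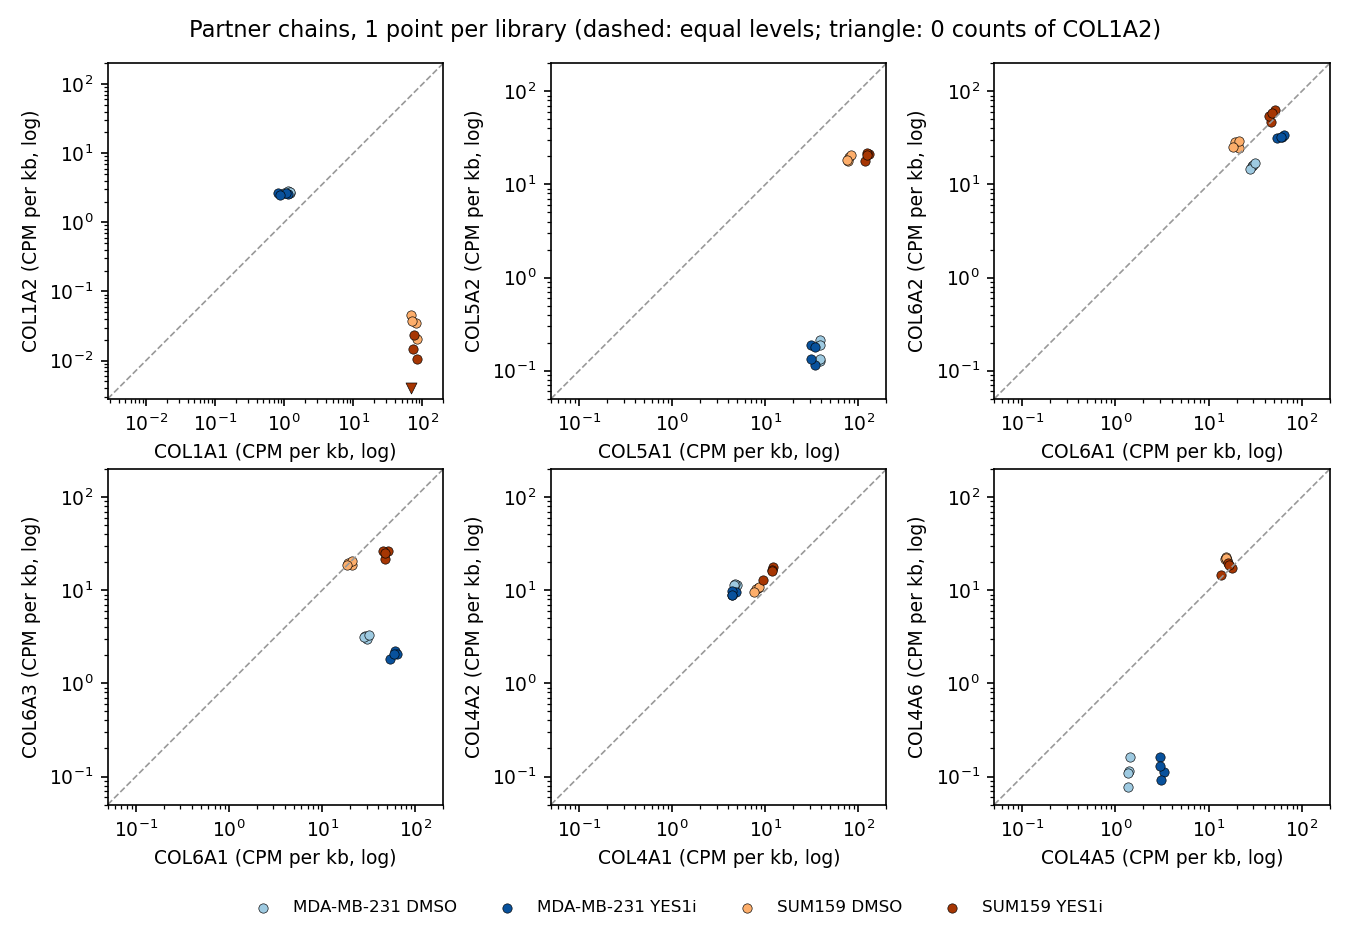
Levels of chains known to assemble together, in TMM-scaled CPM per kb on log axes, with 1 point per library and a dashed line at equal levels; the triangle marks the SUM159 library with 0 counts of COL1A2. COL1A1 lies below COL1A2 in MDA-MB-231 and far above it in SUM159, and COL6A1 with COL6A3 lies farther from the dashed line with YES1i in both lines, at mean ratios of 28.9 in MDA-MB-231 and 1.94 in SUM159.

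COL8A1 and COL8A2 encode the short chains of type VIII collagen, which forms hexagonal networks and is known from blood vessels and the cornea. COL8A1 (ENSG00000144810, chromosome 3, 99638475 to 99799226, plus strand) had 177, 169, 182 and 176 CPM with DMSO and 143, 140.0, 135 and 138 CPM with YES1i in MDA-MB-231. The SUM159 libraries had 812, 697, 734 and 744 CPM with DMSO and 321, 333, 383 and 334 CPM with YES1i. It fell in both lines with no overlap, with log2 changes of -0.34 ± 0.06 SE (adjusted p = 6.19e-06, edgeR) and -1.12 ± 0.05 SE (adjusted p = 3.22e-16, edgeR), and the fall was larger in SUM159 (difference 0.78 ± 0.08 SE, adjusted p = 3.80e-09, edgeR). COL8A2 was far lower. It rose from 1.96 ± 0.615 to 4.09 ± 0.354 CPM (SD, n = 4) in MDA-MB-231, on the log2 scale by 1.05 ± 0.23 SE (adjusted p = 3.67e-04, edgeR), and had 0.356 ± 0.0937 and 0.516 ± 0.212 CPM in SUM159, where it was not called.

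The collagens that attach to fibril surfaces, with their relatives, had 4 tested chains of 10. COL12A1 (ENSG00000111799, chromosome 6, 75084326 to 75206051, minus strand), the chain of a fibril-associated collagen of dense connective tissue, was called in opposite directions. In MDA-MB-231 it had 318, 324, 356 and 316 CPM with DMSO and 275, 256, 267 and 242 CPM with YES1i. The levels in SUM159 were 607, 549, 588 and 601 CPM with DMSO and 831, 840.3, 891 and 815 CPM with YES1i. The groups did not overlap in either line, and the log2 fold changes were -0.34 ± 0.05 SE (adjusted p = 3.54e-06, edgeR) and 0.53 ± 0.05 SE (adjusted p = 1.15e-09, edgeR). The difference between lines was -0.86 ± 0.07 SE (adjusted p = 2.30e-10, edgeR).

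COL16A1 (ENSG00000084636, chromosome 1, 31652247 to 31704319, minus strand) encodes a minor collagen that joins fibrils to other matrix. It had 3.15, 3.92, 3.66 and 3.10 CPM with DMSO and 3.15, 2.56, 3.74 and 2.70 CPM with YES1i in MDA-MB-231, with overlap. Its SUM159 values were 249, 258, 298 and 242 CPM with DMSO and 514, 357, 448 and 481 CPM with YES1i. It rose there on the log2 scale by 0.78 ± 0.09 SE (adjusted p = 1.65e-06, edgeR), with no overlap. The difference between lines (-0.95 ± 0.22 SE, adjusted p = 0.00325, edgeR) was not called by limma-voom (adjusted p = 0.0637).

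COL9A2 (ENSG00000049089, chromosome 1, 40300487 to 40317813, minus strand), a chain of the cartilage collagen type IX, had 5.62, 6.21, 6.28 and 8.11 CPM with DMSO and 7.97, 8.52, 9.07 and 8.45 CPM with YES1i in MDA-MB-231. SUM159 libraries held 0.401, 0, 0.275 and 0.705 CPM with DMSO and 0.833, 0.465, 0.553 and 0.649 CPM with YES1i. The groups overlapped in both lines, and the changes of 0.37 and 0.78 were not called. In MDA-MB-231 the change was called without DMSO replicate 4 (edgeR adjusted p = 0.0423) or SUM159 DMSO replicate 2 (adjusted p = 0.037). In SUM159 it was called without DMSO replicate 4 (edgeR adjusted p = 0.0216), and DESeq2 called both.

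COL18A1 and COL15A1 are the basement membrane proteoglycans of the multiplexin class, and a fragment of the first is endostatin, an inhibitor of vessel growth. COL18A1 (ENSG00000182871, chromosome 21, 45405137 to 45513720, plus strand) had 219, 231, 227 and 245 CPM with DMSO and 358, 328, 386 and 338 CPM with YES1i in MDA-MB-231. For SUM159 the levels were 193, 212, 236 and 189 CPM with DMSO and 381, 263, 328 and 329.8 CPM with YES1i. It rose in both lines with no overlap, on the log2 scale by 0.61 ± 0.09 SE (adjusted p = 2.21e-05, edgeR) and 0.65 ± 0.09 SE (adjusted p = 1.21e-05, edgeR). The difference of -0.04 was not called (95% interval -0.31 to 0.24). SLC19A1 overlaps COL18A1 on the other strand, with 0.454% of its count in MDA-MB-231 and 19.4% in SUM159. COL15A1 had 1.82 ± 0.473 and 2.09 ± 0.497 CPM with DMSO and YES1i in MDA-MB-231 and rose from 0.359 ± 0.212 to 1.61 ± 0.328 CPM in SUM159 (SD, n = 4), on the log2 scale a rise of 2.30 ± 0.35 SE (adjusted p = 2.59e-06, edgeR). Its difference between lines was -2.11 ± 0.45 SE (adjusted p = 4.82e-04, edgeR).

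Of 3 tested transmembrane chains, COL13A1 and COL17A1 fell in both lines. That is 66.7% lower in each line, beside 22.1% of all tested genes in MDA-MB-231 and 26.5% in SUM159. COL13A1 (ENSG00000197467, chromosome 10, 69801867 to 69964275, plus strand), a cell-surface collagen of adhesion sites, had 179, 183, 179 and 178 CPM with DMSO and 149.5, 145, 163 and 149 CPM with YES1i in MDA-MB-231. In SUM159 it had 3.55, 4.26, 3.85 and 3.05 CPM with DMSO and 1.55, 2.65, 2.43 and 2.03 CPM with YES1i. Neither line's groups overlapped, and the log2 changes were -0.25 ± 0.06 SE (adjusted p = 9.88e-04, edgeR) and -0.74 ± 0.13 SE (adjusted p = 1.95e-05, edgeR), differing by 0.50 ± 0.14 SE (adjusted p = 0.0083, edgeR). COL17A1 (ENSG00000065618, chromosome 10, 104031286 to 104085957, minus strand), a component of the hemidesmosomes that anchor epithelial cells, had 15.0, 15.7, 17.4 and 14.9 CPM with DMSO and 9.46, 10.3, 11.6 and 10.3 CPM with YES1i in MDA-MB-231. The SUM159 libraries had 22.8, 20.1, 24.6 and 21.1 CPM with DMSO and 7.74, 5.44, 6.47 and 5.97 CPM with YES1i. It fell in MDA-MB-231 (log2 -0.59 ± 0.10 SE, adjusted p = 1.81e-05, edgeR) and in SUM159 (log2 -1.81 ± 0.11 SE, adjusted p = 2.51e-14, edgeR), with no overlap in either, and the fall was larger in SUM159 (difference 1.21 ± 0.15 SE, adjusted p = 2.04e-07, edgeR). The third tested transmembrane chain, COL23A1, was at 0 counts throughout MDA-MB-231 and rose in SUM159 from 0.263 ± 0.136 to 0.934 ± 0.233 CPM (SD, n = 4), under 1 CPM in both groups.

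The remaining chains form other structures. COL7A1 (ENSG00000114270, chromosome 3, 48564073 to 48595267, minus strand) encodes the anchoring fibrils beneath epithelial basement membranes. In MDA-MB-231 it had 70.5, 71.3, 66.9 and 73.7 CPM with DMSO and 89.6, 82.3, 89.4 and 77.2 CPM with YES1i, with no overlap and a log2 fold change of 0.26 ± 0.09 SE (adjusted p = 0.027, edgeR). This call was lost without DMSO replicate 3 (adjusted p = 0.0667), YES1i replicate 1 (adjusted p = 0.0793) or YES1i replicate 3 (adjusted p = 0.0716), and by limma-voom. The levels in SUM159 were 288, 289.9, 333 and 268 CPM with DMSO and 349, 249, 308 and 347 CPM with YES1i. The groups overlapped, and the change of 0.09 was called only without YES1i replicate 2 (0.19, edgeR adjusted p = 0.0102).

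COL28A1 (ENSG00000215018, chromosome 7, 7356203 to 7535853, minus strand), known from peripheral nerve, had 10.6, 10.6, 10.5 and 10.7 CPM with DMSO and 17.9, 19.6, 16.5 and 16.4 CPM with YES1i in SUM159. It rose there on the log2 scale by 0.73 ± 0.12 SE (adjusted p = 9.45e-06, edgeR), with no overlap. In MDA-MB-231 it had 0.0484, 0.0545, 0 and 0 CPM with DMSO and 0, 0, 0.0960 and 0.150 CPM with YES1i. The DMSO libraries of MDA-MB-231 held 2 counts in all and those of SUM159 held 945, a ratio of 434 after scaling (95% counting interval 119.8 to 3588).

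COL9A3, the last tested chain, stayed under 1 CPM in every group and was called in neither line, and TCFL5, which overlaps it, had far more counts than COL9A3 itself. The 14 chains that were not tested were COL10A1, COL24A1, COL20A1, COL14A1, COL21A1, COL25A1, COL6A6, COL22A1, COL2A1, COL11A1, COL26A1, COL19A1, COL9A1 and COL6A5. Their group means ran from 0 to 0.503 CPM. COL6A5 had 0 counts in every library, and COL2A1 and COL11A1, the cartilage fibril chains, had 8 counts each over all 16.

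In the controls the lines differed in most chains. With DMSO, 7 of the 30 tested chains were higher in MDA-MB-231 and 20 lower, where 37.8% of all tested genes were higher, 38.7% lower and 76.6% either. Some chains passed the filter only through the line where they were high, such as COL5A3 in SUM159. Of the 19 chains past the filter level in all 16 libraries, 3 were higher in MDA-MB-231 and 15 lower. The shares over all genes past that level in all 16 libraries were not counted here either. Over the 30 tested chains, the groups did not overlap for 7 higher and 19 lower chains, against 36.0% and 36.4% of all tested genes. The median log2 difference of the chains was -0.81, beside -0.02 for all tested genes. Per kb, the highest chains with DMSO in MDA-MB-231 were COL5A1 at 38.8 ± 0.356, COL13A1 at 30.6 ± 0.390 and COL6A1 at 29.8 ± 1.49 CPM per kb, of which COL13A1 and COL6A1 overlapped in range. In SUM159 they were COL8A1 at 79.4 ± 5.10, COL5A1 at 78.9 ± 3.17 and COL1A1 at 75.9 ± 7.16 CPM per kb (SD, n = 4), whose ranges overlapped.

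The type I chains were at unequal levels in both lines, in opposite order. COL1A1 was lower in MDA-MB-231 than in SUM159 (log2 difference -6.05 ± 0.10 SE, adjusted p = 3.32e-22, edgeR), and COL1A2 was higher there by 6.23 ± 0.16 SE (adjusted p = 6.70e-24, edgeR). Per kb the ratio of COL1A1 to COL1A2 with DMSO was 0.417 ± 0.0375 in MDA-MB-231 and ran from 1484 to 4029 in SUM159. The ratio of COL5A1 to COL5A2 was 245 ± 62.7 in MDA-MB-231 and 4.12 ± 0.137 in SUM159 with DMSO (SD, n = 4). The ratio of COL4A1 to COL4A2 was 0.416 ± 0.0161 and 0.787 ± 0.00242, and that of COL4A5 to COL4A6 was 12.8 ± 3.77 and 0.701 ± 0.0229. COL6A1 and COL6A3 in SUM159 with DMSO were at about equal levels per kb, with ratios from 0.965 to 1.11.

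Of the type IV and VI chains, COL4A6 (-7.54), COL4A5 (-3.47) and COL6A3 (-2.62) had the largest log2 differences, all lower in MDA-MB-231 with DMSO. COL5A1 (-1.02), COL12A1 (-0.84), COL8A1 (-2.09), COL7A1 (-2.06), COL27A1 (-0.74), COL17A1 (-0.50) and COL5A2 (-6.85) were also lower there. COL13A1 (5.62), COL9A2 (4.18), COL15A1 (2.46) and COL8A2 (2.44) were higher in MDA-MB-231, and COL16A1 (-6.25) and COL3A1 (-8.69) were lower. The type VI chains went both ways, with COL6A1 higher in MDA-MB-231 (0.58) and COL6A2 lower (-0.76), as was COL6A3. COL4A2 was higher by 0.15 ± 0.07 SE (adjusted p = 0.0336, edgeR), a call lost without SUM159 DMSO replicate 2 (adjusted p = 0.0631) or replicate 4 (adjusted p = 0.11). COL18A1 did not pass the test (0.15, edgeR adjusted p = 0.143), but it did without SUM159 DMSO replicate 3 (adjusted p = 0.0271) or YES1i replicate 2 (adjusted p = 0.0293) and without the filter on low counts.

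Summed over all 44 chains, the family in MDA-MB-231 held 225 ± 3.16 CPM per kb under DMSO and 264 ± 12.4 CPM per kb under YES1i (SD, n = 4). For SUM159 the sums were 526 ± 21.6 and 661 ± 49.4 CPM per kb. As a share of counts this was 0.213% and 0.225% for MDA-MB-231, then 0.538% and 0.667% for SUM159. The treated sum was 1.17 times the control in MDA-MB-231 and 1.26 times in SUM159. In MDA-MB-231 the ratio was 1.05 without COL6A1, the chain with the highest treated level there, and 1.06 without the division by length.

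By class, type VI chains went from 21.7% ± 0.928 to 35.6% ± 0.763 of the summed level per kb in MDA-MB-231, and from 12.6% ± 0.352 to 19.5% ± 0.509 in SUM159 (SD, n = 4). Fibrillar chains went from 19.6% ± 0.214 to 14.1% ± 0.214 in MDA-MB-231 and were 36.5% ± 0.956 and 37.3% ± 0.510 in SUM159. The short-chain class, nearly all COL8A1, went from 15.1% ± 1.22 to 5.57% ± 0.604 in SUM159, and the transmembrane class from 14.6% ± 0.286 to 10.3% ± 0.269 in MDA-MB-231. These shares are descriptions with no test.

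**Figure D4:**
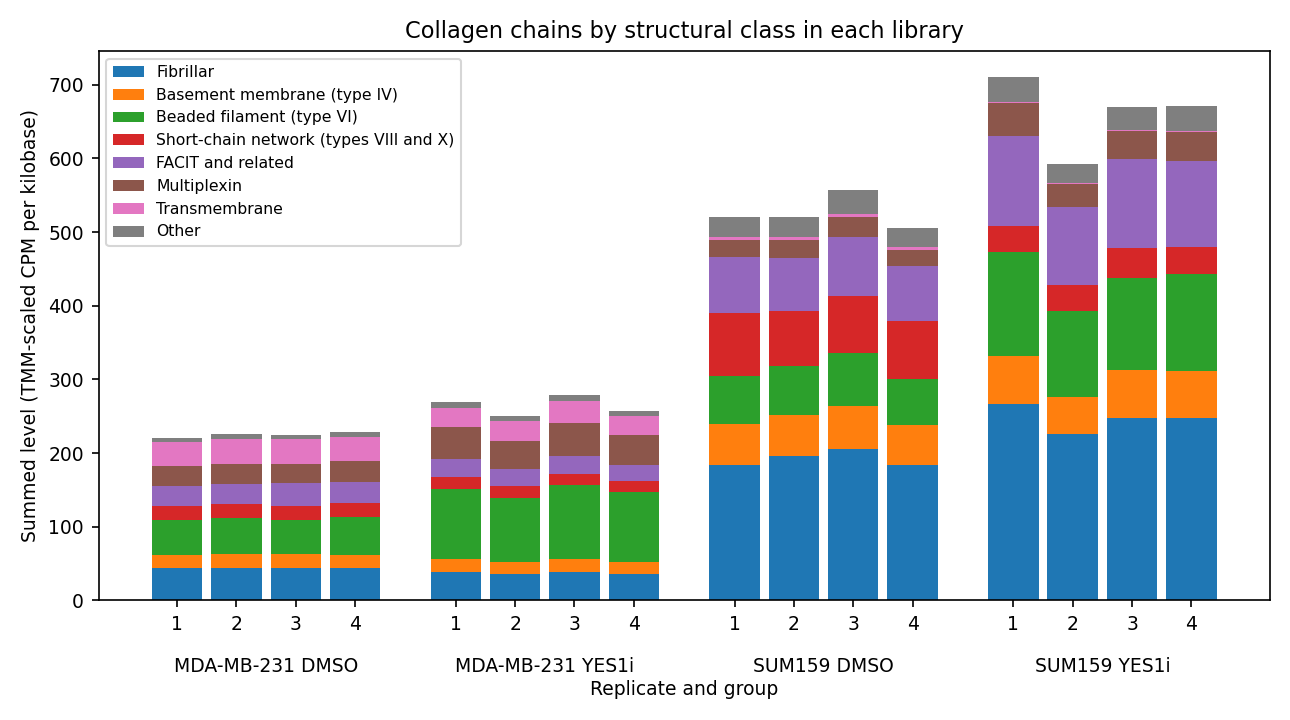
Summed level of the 44 chains in each library, in TMM-scaled CPM per kb, stacked by structural class, with 4 replicates per group. The type VI share is larger with YES1i in both lines, and SUM159 YES1i replicate 2 has the lowest sum of its group, at 593 CPM per kb.

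Genes that modify, process, bind and break down collagen are given from lists of textbook members. Of 25 tested genes of collagen modification, folding and export, 15 rose and 3 fell in MDA-MB-231 (median log2 fold change 0.23), and 9 rose and 6 fell in SUM159 (median 0.03). For these lists the shares over all tested genes are again 26.8% higher and 22.1% lower in MDA-MB-231, while SUM159 has 25.1% and 26.5%. The modification genes reached 60% and 12% in MDA-MB-231, with 36.0% and 24% in SUM159, so that the lower share in SUM159 is near that of all genes. COLGALT2, which adds galactose to hydroxylysine, rose from 15.5 ± 1.24 to 52.7 ± 4.09 CPM in MDA-MB-231 and from 3.53 ± 0.855 to 9.99 ± 0.583 CPM in SUM159 (SD, n = 4). Its log2 fold changes were 1.77 ± 0.09 SE (adjusted p = 1.54e-15, edgeR) and 1.52 ± 0.12 SE (adjusted p = 1.80e-11, edgeR).

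Of 14 tested genes of procollagen processing and cross-linking, 3 rose and 4 fell in MDA-MB-231, and 6 rose and 3 fell in SUM159. In MDA-MB-231 these are 21.4% and 28.6%, near the 26.8% and 22.1% of all tested genes, while SUM159 had 42.9% and 21.4%, beside 25.1% and 26.5%. The genes of this list named here all rose. None of the 4 that fell in MDA-MB-231, 1 of them by at least 2-fold, is among them. ADAMTS14, a protease that removes the amino-terminal propeptide, rose from 9.92 ± 1.01 to 42.4 ± 4.21 CPM in MDA-MB-231 and from 2.02 ± 0.337 to 6.92 ± 1.24 CPM in SUM159, by 2.09 and 1.82 on the log2 scale. LOX, the lysyl oxidase that starts cross-linking, rose by 0.52 ± 0.06 SE (adjusted p = 1.86e-08, edgeR) in MDA-MB-231 and by 1.42 ± 0.06 SE (adjusted p = 3.71e-17, edgeR) in SUM159, from 30.5 ± 2.92 to 82.0 ± 2.45 CPM. The difference for LOX was -0.90 ± 0.09 SE (adjusted p = 1.82e-09, edgeR).

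Collagen receptors had 9 tested genes of 11. In MDA-MB-231, 6 rose and none fell (median log2 fold change 0.69), and in SUM159, 5 rose and 1 fell (median 0.47). These are 66.7% higher in MDA-MB-231, where 26.8% of all tested genes were higher, and 55.6% higher and 11.1% lower in SUM159, beside 25.1% and 26.5%. The 1 that fell was ITGA2 (-0.49 on the log2 scale), named after its value was seen. The integrin chains ITGA1 and ITGA10 rose in both lines, ITGA10 from 8.18 ± 0.825 to 58.6 ± 3.34 CPM in MDA-MB-231 (2.84 ± 0.09 SE, adjusted p = 1.67e-20, edgeR) and from 22.2 ± 0.887 to 40.6 ± 5.17 CPM in SUM159. ITGA1 changed by 1.42 and 0.47 on the log2 scale. ITGA11, the fibroblast-type receptor for fibrillar collagen, rose from 16.8 ± 1.13 to 71.8 ± 3.29 CPM in SUM159 (2.09 ± 0.08 SE, adjusted p = 4.11e-18, edgeR) and was at 0.139 ± 0.112 CPM with DMSO in MDA-MB-231. DDR2, a receptor kinase activated by fibrillar collagen, rose from 6.98 ± 0.808 to 19.9 ± 2.52 CPM in SUM159 and was at 1.40 ± 0.286 and 1.33 ± 0.151 CPM in MDA-MB-231, with a difference between lines of -1.59 ± 0.24 SE (adjusted p = 5.63e-06, edgeR).

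Of the collagen-binding matrix partners, 11 of 13 were tested, of which 5 rose and 2 fell in MDA-MB-231, and 6 rose and none fell in SUM159. The 2 that fell in MDA-MB-231 fell by at least 2-fold and are not among the partners named here. The shares were 45.5% and 18.2% in MDA-MB-231, beside 26.8% and 22.1% of all tested genes, and 54.5% higher in SUM159, beside 25.1%. FN1, the fibronectin on which cells lay down collagen, rose from 615 ± 28 to 2626 ± 130.0 CPM in MDA-MB-231 and from 5661 ± 325 to 7237 ± 159 CPM in SUM159, by 2.09 and 0.35 on the log2 scale, which differed by 1.74 ± 0.07 SE (adjusted p = 2.94e-17, edgeR). TNXB, a tenascin of collagen-rich tissue, rose by 1.44 in MDA-MB-231 and 1.77 in SUM159. DCN, the fibril-binding proteoglycan decorin, had 0 counts in MDA-MB-231 and rose from 8.59 ± 1.70 to 19.0 ± 1.17 CPM in SUM159. Of 6 tested genes of collagen breakdown, 3 rose and none fell in MDA-MB-231, and 4 rose and 1 fell in SUM159. Here 50% were higher in MDA-MB-231 (26.8% of all tested genes), and 66.7% higher and 16.7% lower in SUM159 (25.1% and 26.5%). The 1 that fell was PREP (-0.52 on the log2 scale), likewise named after its value was seen. MMP14, a membrane collagenase, rose by 0.56 ± 0.05 SE (adjusted p = 2.05e-10, edgeR) in MDA-MB-231 and by 1.13 ± 0.06 SE (adjusted p = 2.04e-15, edgeR) in SUM159, and the secreted collagenase MMP1 rose in MDA-MB-231 from 6.44 ± 0.567 to 15.0 ± 1.08 CPM.

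Markers of other cell types were measured beside the chains. Of 8 tested rows of fibroblast and mural markers, 1 was higher and 2 lower in MDA-MB-231, and 4 were higher and none lower in SUM159. That is 12.5% and 25% in MDA-MB-231, below or near the 26.8% and 22.1% of all tested genes, and 50% higher in SUM159, beside 25.1%. The summed level of the fibroblast and mural markers was 31.1 to 35.9 CPM with DMSO and 20.7 to 23.6 CPM with YES1i in MDA-MB-231, beside 67.2 to 75.2 and 95.9 to 102.6 CPM in SUM159. FAP was too low to be tested, and DCN was at 0 in MDA-MB-231. The endothelial sum was 6.16 to 9.01 and 14.8 to 18.4 CPM in MDA-MB-231, where PECAM1 rose by 1.43 on the log2 scale, and 10.0 to 11.9 and 18.3 to 20.1 CPM in SUM159. The epithelial sum was 1151 to 1247 and 772 to 873 CPM in MDA-MB-231, beside 408 to 440 and 322 to 372 CPM in SUM159. The leukocyte sum was 9.98 to 11.8 and 12.1 to 14.5 CPM in MDA-MB-231, beside 0.822 to 1.38 and 2.55 to 2.80 CPM in SUM159. PTPRC and CD3E of the leukocyte list and CDH5 of the endothelial list were too low to be tested. Of 3 tested endothelial markers, 100% were higher in MDA-MB-231 and 66.7% in SUM159, beside 26.8% and 25.1% of all tested genes. Of 2 tested leukocyte markers, 50% were higher in each line. None of these fell. Of 4 tested epithelial markers, none rose and 50% fell in MDA-MB-231, where 22.1% of all tested genes fell. In SUM159, 25% of the 4 rose and 50% fell, beside 25.1% and 26.5%. The part of these markers in the results on the chains was not tested.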

How the data were processed

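RNA-seq counts per gene from 16 libraries of 2 cell lines were used as the authors deposited them, with the gene length in bases that stands beside them. Per the submitters' processing notes, HISAT2 2.0.5, featureCounts 1.5.0-p3 and the build hg38 were used. The sources used here do not name the annotation, the strand setting or the rule for multiply mapped reads.

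The deposited counts were fitted with edgeR 4.0.16 (R 4.3.3), in 1 model of all 16 libraries with 1 mean per group, TMM scaling, filterByExpr and the robust quasi-likelihood F test. P-values were adjusted by the Benjamini-Hochberg method over all tested genes and called at 0.05. Standard errors were the log2 fold change over the root of F. The tests were two-sided, and the fit was tested on simulated data. Comparisons were YES1i against DMSO in each line, the difference of these changes, and the lines against each other in DMSO. The alternatives were other scalings, DESeq2 1.42.0, limma-voom (limma 3.58.1), other filters, a replicate block, each line alone, and each library left out.

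Chains at 1 CPM or more in a group were named, and those at 5 CPM or more were given in every library. Pathway genes were named where called with a log2 fold change of at least 1 and a mean of 5 CPM or more in a group of that line. ITGA2 and PREP, outside this rule, and the cell type markers were named besides. Members and lists were chosen with earlier results of these data known, and list counts and medians are descriptions.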

Additional observations from a re-analysis of the deposited data

Results flagged for a closer look

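In 5 of 112 groups of 4 libraries, 1 library stood farther from the others than Dixon's 95% limit for the gap over the range, and chance alone gives about 5% of groups. COL4A1 was at 71.3 CPM in MDA-MB-231 YES1i replicate 1, where the nearest library had 65.3 CPM. It was at 137 CPM in SUM159 YES1i replicate 2, with the nearest at 173 CPM. COL27A1 was at 9.37 CPM in MDA-MB-231 YES1i replicate 2, with the nearest at 11.5 CPM. COL3A1 was at 0 CPM in MDA-MB-231 YES1i replicate 1, and COL4A3 was at 2.77 CPM in SUM159 YES1i replicate 4.

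For 16 chains the change with YES1i differed between the lines in the edgeR test of the difference, given here as the log2 fold change in MDA-MB-231 minus that in SUM159. The change was lower in MDA-MB-231 for the fibrillar chains COL5A1 (-0.90), COL27A1 (-1.15) and COL11A2 (-1.85). It was also lower for COL4A1 (-0.54), COL4A2 (-0.93) and COL4A4 (-1.45) of type IV, and for COL6A1 (-0.27) and COL6A3 (-0.98) of type VI. COL12A1 (-0.86), COL16A1 (-0.95) and COL15A1 (-2.11) complete these 11. The change was higher in MDA-MB-231 for COL4A5 (1.11), COL8A1 (0.78), COL13A1 (0.50), COL17A1 (1.21) and COL1A2 (1.41).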

How the results depend on the processing

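No count of called collagen chains moved by more than 1.5 times under any alternative run, and no named chain's call reversed. With each library left out in turn, 5 to 7 chains were higher and 8 to 9 lower in MDA-MB-231, and 17 to 20 higher and 6 lower in SUM159. The difference between lines gave 4 to 6 higher and 11 lower, and the lines in DMSO 6 to 8 higher and 20 lower. With the replicate number as a block the counts were 6 and 8, 17 and 6, 5 and 11, and 7 and 20, the same as without it. Between DMSO and YES1i of a line, libraries with the same number did not deviate together (correlations from -0.107 to 0.0116). This check could miss a weak pairing, so whether the numbers pair samples is not known. Of the named chains called, 13 of 14 in MDA-MB-231, 22 of 22 in SUM159, 14 of 16 for the difference and 25 of 26 for the lines in DMSO were called in every alternative that tested them. The summed level of collagen chains in MDA-MB-231, 1.17 times the control, was 1.06 without the length and 1.05 without the highest chain, and 1.15 to 1.19 with libraries left out. In SUM159 upper quartile scaling took the median log2 change from 0.02 to 0.14 over all genes and from 0.57 to 0.69 over the chains. Chains near the limit that a count of 0 allows, such as COL1A2 in SUM159, are limited by depth.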
